A study of Mus musculus with 12 samples.

Results

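Keratins are the intermediate filament proteins of epithelial cells, and 10 keratin genes used as luminal or basal labels in mammary tissue were followed here: Krt5, Krt7, Krt8, Krt14, Krt15, Krt17, Krt18, Krt19, Krt20 and Krt80. They were chosen by name, not by a threshold on their values, and are 10 of 54232 genes in the count files and 10 of 53 protein-coding keratin genes. RNA was sequenced from a mouse breast cancer cell line, MMTV-NIC, in 4 groups of 3 libraries: AXL WT and AXL KO cells, each in 21% oxygen (normoxia) or 1% oxygen (hypoxia). All 4 groups carry the MMTV-NIC transgene, in which a mammary tumour virus promoter drives an activated Neu (ErbB2) receptor together with Cre recombinase. AXL is a receptor tyrosine kinase, and the KO cells are labelled as its knockout. The labels give neither the length of the hypoxia, the number of KO clones nor the origin of the replicates, so each p-value is set against the spread of the libraries at hand, and that spread may be purely technical.

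A keratin filament is an obligate heteropolymer of a type I (acidic) and a type II (basic) protein. Krt8 (type II) with Krt18 (type I) is the pair of simple and luminal epithelium, and Krt5 (type II) with Krt14 (type I) is the pair of basal and myoepithelial cells. Krt7 (type II) and Krt19 (type I) accompany Krt8 and Krt18 in ductal luminal cells, Krt15 and Krt17 (both type I) are found in basal, stem-like or stressed epithelium, Krt20 (type I) is best known from gut and urothelium, and Krt80 (type II) is a widely expressed keratin found near desmosomes.

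Each library held between 45297267 and 58775422 counts in genes. Axl, the check of the genotype labels, was at 934 ± 57.7 CPM (counts scaled to library size, mean ± SD, n = 3) in AXL WT normoxia and 518 ± 69.1 in AXL WT hypoxia. In the AXL KO libraries it was at 3.22 ± 0.271 (normoxia) and 2.05 ± 0.319 CPM (hypoxia). The AXL WT hypoxia libraries stood apart from each other: their biological coefficient of variation was 0.4, against 0.0566 to 0.0895 in the other groups. The main fit shares 1 estimate of the spread per gene over all 4 groups. Standard errors, intervals and p-values of comparisons without AXL WT hypoxia therefore also carry the spread of that group. Mitochondrial rRNA took 0.0924%, 0.519% and 0.284% of the counts in AXL WT hypoxia replicates 1, 2 and 3, against 0.0874% to 0.13% in the other libraries. The part of this difference in the keratin values was not tested, and the keratin results that use these libraries were also computed with some of them left out. In bulk RNA, fewer cells of a type and less RNA per cell cannot be told apart.

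Krt8 and Krt18 made up most of the keratin RNA in every group, with Krt7 next in AXL WT normoxia, and the basal labels other than Krt14 were close to unread. Krt18 (ENSMUSG00000023043, GRCm38 chromosome 15, 102028180 to 102032027, plus strand) and Krt8 (ENSMUSG00000049382, chromosome 15, 101996698 to 102004482, minus strand) are neighbours whose starts point away from each other, 23698 bases apart. Krt7 (ENSMUSG00000023039, 101411043 to 101430313, plus strand) and Krt80 (ENSMUSG00000037185, 101347444 to 101370162, minus strand) lie in the same chromosome 15 cluster, although Krt18 is the only type I gene there. Krt14 (ENSMUSG00000045545, 100203162 to 100207548, minus strand) and Krt20 (ENSMUSG00000035775, 99428403 to 99438150, minus strand) lie in the type I cluster of chromosome 11. Per kilobase of annotated exon, the means in AXL WT normoxia were 733 CPM per kilobase for Krt18, 428 for Krt8, 92.4 for Krt7, 18.8 for Krt14, 8.54 for Krt80 and 0.279 for Krt20. Per kilobase of the longest coding transcript, Krt7 was at 159 and Krt80 at 13.9 CPM per kilobase in AXL WT normoxia, so their distance from their neighbours depends on the length used while the order in that group stays. In AXL WT hypoxia the levels spread widely between libraries, but Krt18 (443 ± 314) was above Krt8 (267 ± 137) in each library. The Krt8 to Krt18 ratio per kilobase of exon was 0.525 to 0.803 there. Krt14 (45.9 ± 27.8) was above Krt7 (22.9 ± 12.2) in each of these libraries, at 77.8, 27.0 and 32.8 against 36.7, 13.4 and 18.5. Per kilobase of the longest coding transcript their means were closer, at 47.5 and 39.4. In both AXL KO groups Krt7 kept its place under Krt8, and Krt14 and Krt80 were near each other below 1 CPM per kilobase of exon. Among all genes ranked by this level, Krt18 was number 17 in AXL WT normoxia, 61 in AXL WT hypoxia, and 21 (normoxia) and 35 (hypoxia) in AXL KO.

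Stretches of DNA directly upstream of Krt8, Krt18 and Krt20 are shown because the first pair gave most of the keratin RNA in every group while Krt20 was unread in AXL KO cells. They come from the RefSeq promoter table (build GRCm38.p6), which held 6 of the 10 members, and were shortened to bases outside annotated exons. The Krt8 stretch is 110 bases (chr15:102004483-102004592, minus strand), the Krt18 stretch 214 bases (chr15:102027966-102028179, plus strand) and the Krt20 stretch 250 bases (chr11:99438154-99438403, minus strand), each written 5′ to 3′ with the motifs that were found in capitals.
Krt8: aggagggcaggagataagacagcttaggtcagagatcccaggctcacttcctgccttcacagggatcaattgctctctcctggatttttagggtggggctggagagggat
Krt18: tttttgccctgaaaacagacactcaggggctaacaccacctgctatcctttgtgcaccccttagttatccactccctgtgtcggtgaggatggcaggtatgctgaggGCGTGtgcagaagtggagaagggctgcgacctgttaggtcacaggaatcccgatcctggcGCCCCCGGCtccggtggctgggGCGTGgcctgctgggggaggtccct
Krt20: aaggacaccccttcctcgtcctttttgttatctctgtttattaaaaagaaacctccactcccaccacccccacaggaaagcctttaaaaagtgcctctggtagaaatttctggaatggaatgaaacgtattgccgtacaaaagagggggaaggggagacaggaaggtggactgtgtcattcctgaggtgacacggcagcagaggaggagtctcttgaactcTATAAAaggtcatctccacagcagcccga
Motifs were searched on both strands over the 250 bases before the start, beside all 32851 windows of that length in the table. The core of the promoter box bound by TBP, TATAAA, was present in 12.4% of all windows, and the box bound by Sp1 factors, GGGCGG, in 32.7%. The AP-2 motif GCCNNNGGC was present in 13.7% and the grainyhead motif AACNNGTT in 3.64%. The AP-1 motif, searched by name with any base at its centre, was present in 6.75%. Of the hypoxia response cores, ACGTG was present in 16.6% of windows, and the other core, GCGTG, in 28.2%. Krt18 held GCGTG at -143 and -61 and GCCNNNGGC at -83 from the RefSeq start, and Krt20 held TATAAA at -29. None of these letters were in the window of Krt8 or of Krt5. Krt7 held GGGCGG at -141, -128, -56 and -24 and GCCNNNGGC at -146 and -70, in a window that is mostly annotated exon and is not printed, and the Krt14 entry, which held GCGTG at -61, starts inside the annotated gene and is not printed either. A match here describes letters and is no evidence of binding.

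**Figure D1:**
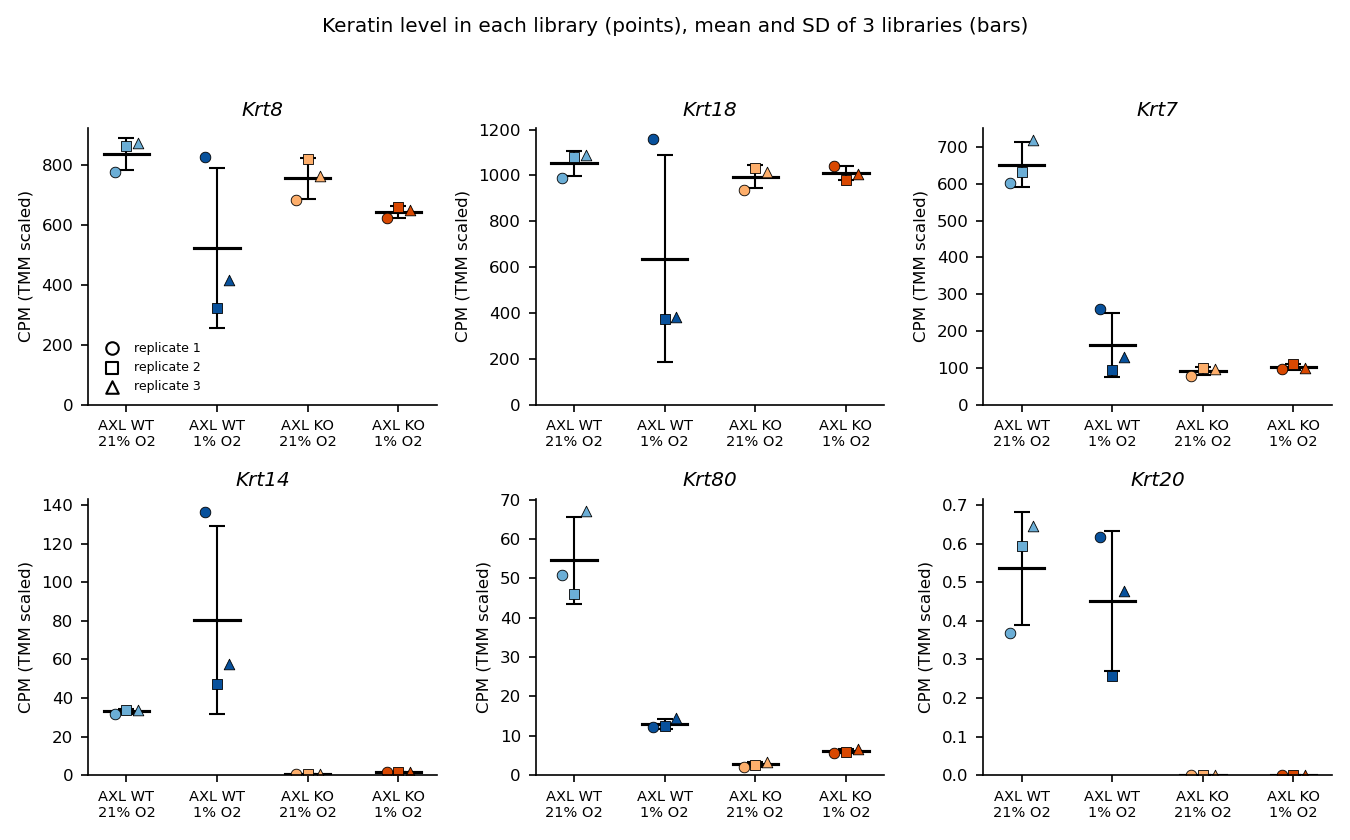
Level of each of the 6 tested keratins in CPM, each on its own linear axis, with 1 point per library and bars for the group mean and SD. Krt8 and Krt18 lie at similar heights in all groups except AXL WT hypoxia, whose libraries are spread, while Krt14, Krt20 and Krt80 are lower in both AXL KO groups than in both AXL WT groups.

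Of the 10 members, 6 had enough counts to be tested among 16767 genes, and Krt20 entered only through its AXL WT counts, so its call between genotypes could go only 1 way and is left out of the counts between genotypes. In the comparison of AXL KO with AXL WT in hypoxia, none of the other 5 was called higher by edgeR, beside 29.9% of all genes tested, and 2 (Krt14 and Krt80) were called lower, beside 33%. The count of higher members was also 0 at an unadjusted p under 0.05 and 0 by DESeq2, and 1 by limma-voom. In normoxia none was higher in AXL KO (29.7% of all genes; 0 at an unadjusted p, by DESeq2 and by limma-voom) and 3 of the 5 (Krt7, Krt14 and Krt80) were lower (30%). Between the oxygen levels, AXL WT cells had 1 member higher in hypoxia (Krt14; 29.2% of all genes) and 3 lower (Krt7, Krt8 and Krt80; 30.7%). AXL KO cells had 2 higher in hypoxia (Krt14 and Krt80; 27.3%) and none lower (30.6%). None was lower there at an unadjusted p or by DESeq2, and 1 was by limma-voom. In the interaction, which is the hypoxia response of AXL KO cells minus that of AXL WT cells, 2 members were higher (Krt7 and Krt80; 13.5%) and none was lower (15.3%; 0 at an unadjusted p, by DESeq2 and by limma-voom). All p-values printed for single genes are Benjamini-Hochberg adjusted over all genes tested (edgeR quasi-likelihood test). With library size as the only scaling, the median of all genes moved from -0.03 to -0.29 (KO against WT in normoxia), from -0.02 to -0.32 (oxygen in AXL WT) and from -0.03 to -0.23 (oxygen in AXL KO) on the log2 scale. The higher calls then fell from 49.7% to 35.8%, from 48.8% to 33.2% and from 47.1% to 36% of all calls in these 3 comparisons. They fell from 47.5% to 39.2% in AXL KO against WT in hypoxia and rose from 46.9% to 55.1% in the interaction, with medians of -0.21 and 0.07 under library size alone.

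**Figure D2:**
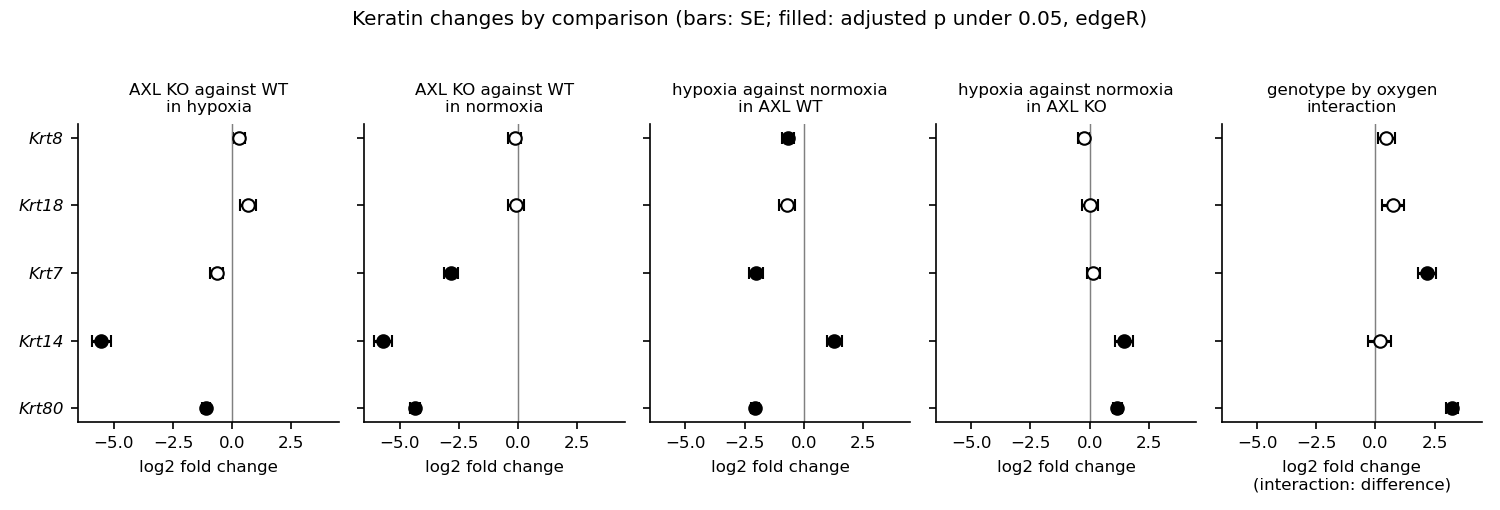
Log2 fold change of 5 tested keratins (all but Krt20) in the comparisons between groups, with its standard error. Filled marks are calls at an adjusted p under 0.05: Krt14 and Krt80 are called in each of the 4 plain comparisons, and Krt18 in none.

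Krt18, the luminal type I keratin, was read at 989, 1079 and 1090 CPM in AXL WT normoxia and at 937, 1031 and 1015 CPM in AXL KO normoxia. It was at 1042, 980 and 1007 CPM in AXL KO hypoxia, and at 1158, 372 and 382 CPM in AXL WT hypoxia. The other 3 groups overlapped, and the AXL WT hypoxia group had 1 library above all others and 2 far below. The log2 difference between AXL KO and AXL WT in normoxia was -0.08 ± 0.34 (SE; adjusted p = 0.848, 95% interval -0.86 to 0.69). In hypoxia it was 0.66 ± 0.34 (adjusted p = 0.106, interval -0.12 to 1.44). This value rests on AXL WT hypoxia replicate 1: without it Krt18 was higher in AXL KO by 1.43 (adjusted p = 8.64e-09), and without replicates 2 and 3 the difference was -0.20 (adjusted p = 0.0633). By limma-voom it was 0.88 (adjusted p = 0.00641). The response to hypoxia was -0.72 ± 0.34 in AXL WT (adjusted p = 0.0839, interval -1.50 to 0.06) and 0.02 ± 0.34 in AXL KO (adjusted p = 0.972, interval -0.76 to 0.80), and the interaction of 0.75 ± 0.48 did not pass (adjusted p = 0.268). The AXL WT response passed under library size alone (-1.03, adjusted p = 0.018), by limma-voom (-0.94, adjusted p = 0.00448) and without the first AXL WT hypoxia library (-1.48, adjusted p = 1.45e-08), and the interaction passed without that library (1.51, adjusted p = 4.39e-07) and by limma-voom (0.96, adjusted p = 0.0115).

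Krt8, the type II partner of Krt18, was at 777, 864 and 875 CPM in AXL WT normoxia and at 683, 820.1 and 765 CPM in AXL KO normoxia. In hypoxia it was at 622, 659 and 651 CPM in AXL KO and at 828, 323 and 417 CPM in AXL WT. The AXL KO hypoxia libraries were all below those of both normoxia groups, and the AXL WT hypoxia libraries lay on both sides of them. Krt8 fell in hypoxia in AXL WT by 0.68 ± 0.26 on the log2 scale (adjusted p = 0.0382). That call was lost without any 1 of the AXL WT normoxia replicates (adjusted p = 0.0717 to 0.108), without AXL WT hypoxia replicate 2 (0.116) or 3 (0.13), without a filter (0.0986) and with the compared libraries alone (0.157). Without AXL WT hypoxia replicates 2 and 3 together the difference was -0.01. In AXL KO the oxygen difference was -0.23 ± 0.26 (adjusted p = 0.465, interval -0.82 to 0.36), and it passed by limma-voom (adjusted p = 0.0384), with the compared libraries alone (0.0153) and without AXL WT hypoxia replicates 2 and 3 (0.01). AXL KO and AXL WT differed by -0.15 ± 0.26 in normoxia (adjusted p = 0.634, interval -0.74 to 0.44) and by 0.30 ± 0.26 in hypoxia (adjusted p = 0.325, interval -0.29 to 0.89). Without AXL WT hypoxia replicate 1, Krt8 was higher in AXL KO hypoxia by 0.81 (adjusted p = 3.66e-05), and without replicates 2 and 3 it was lower, at -0.37 (adjusted p = 0.00458), so the direction in hypoxia depends on which AXL WT libraries enter. The interaction was 0.45 ± 0.36 (adjusted p = 0.385) and, without replicate 1, 0.95 (adjusted p = 0.000242). Fragments that also map to a Krt8 copy were not counted, which may remove some Krt8 reads. The annotated Krt8-ps pseudogene collected 0.191% to 0.318% as many counts as Krt8 (group means).

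**Figure D3:**
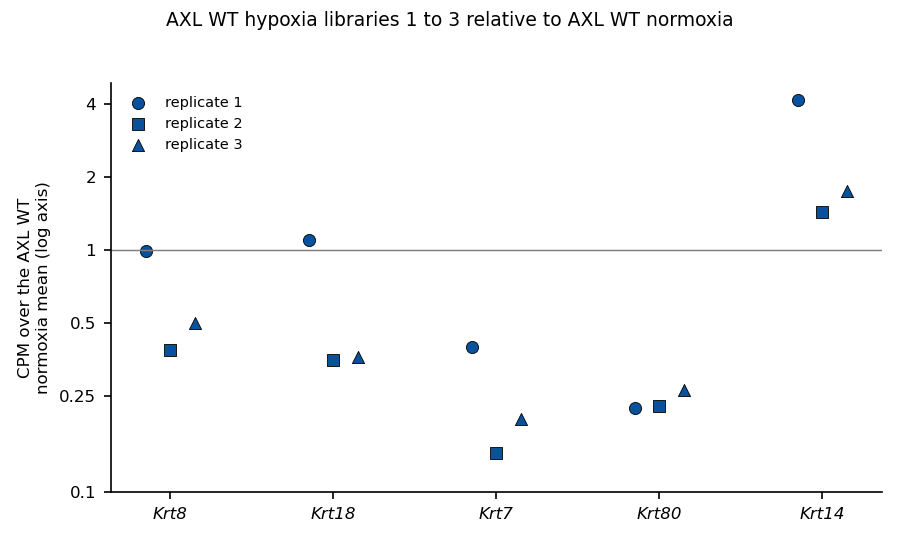
Level of 5 keratins in each AXL WT hypoxia library relative to the AXL WT normoxia mean. Replicate 1 sits near the normoxia mean for Krt8 and Krt18, replicates 2 and 3 below it, and all 3 replicates lie below it for Krt7 and Krt80 and above it for Krt14.

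The spread inside AXL WT hypoxia had different sizes for different keratins. Relative to the AXL WT normoxia mean, replicates 1, 2 and 3 stood at 1.10, 0.353 and 0.362 for Krt18 and at 0.987, 0.385 and 0.498 for Krt8. They stood at 0.397, 0.145 and 0.200 for Krt7, at 0.223, 0.228 and 0.265 for Krt80 and at 4.14, 1.43 and 1.74 for Krt14. Replicate 1 was thus the highest of the 3 for every keratin here except Krt80, whose 3 libraries lay close together. The direction against normoxia was shared by all 3 libraries for Krt7, Krt80 and Krt14, and not for Krt18, while replicate 1 was inside the normoxia range for Krt8.

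Krt7, a type II keratin of ductal luminal cells, was at 602, 633 and 719 CPM in AXL WT normoxia and at 78.9, 100.1 and 95.8 CPM in AXL KO normoxia. In hypoxia it was at 259, 94.5 and 130 CPM in AXL WT and at 96.8, 110.4 and 99.2 CPM in AXL KO. AXL WT normoxia stood alone at the top, and AXL WT hypoxia overlapped with the range of both AXL KO groups. Krt7 was lower in AXL KO in normoxia, with a log2 fold change of -2.83 ± 0.29 (adjusted p = 5.75e-06). In hypoxia the difference was -0.66 ± 0.28 and missed the threshold (adjusted p = 0.0551, 95% interval -1.30 to -0.02). It passed with DESeq2 (0.0292), with relative log expression (RLE) size factors (0.0437), with library size alone (0.0211), with the strict filter (0.0335), without AXL WT hypoxia replicate 2 (0.00324) or 3 (0.0464), and without both (-1.35, adjusted p = 7.16e-08). It was -0.13 without replicate 1 (adjusted p = 0.418). The hypoxia response of Krt7 in AXL WT was -2.01 ± 0.29 (adjusted p = 9.4e-05; -1.32 without replicates 2 and 3), and in AXL KO its oxygen difference was 0.16 ± 0.28 (adjusted p = 0.65, interval -0.48 to 0.79). The responses themselves differed, with an interaction of 2.17 ± 0.39 (adjusted p = 0.00202). The interaction was 2.70 without AXL WT hypoxia replicate 1 and 1.48 without replicates 2 and 3, called in both.

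Krt80, a type II keratin, was at 50.8, 46.0 and 67.0 CPM in AXL WT normoxia and at 12.2, 12.5 and 14.5 CPM in AXL WT hypoxia. In AXL KO it was at 2.14, 2.64 and 3.29 CPM in normoxia and at 5.63, 5.98 and 6.58 CPM in hypoxia. No 2 groups overlapped, and the order was AXL WT normoxia, AXL WT hypoxia, AXL KO hypoxia and AXL KO normoxia. Krt80 was lower in AXL KO, at -4.34 ± 0.20 in normoxia (adjusted p = 7.77e-09) and also in hypoxia, at -1.11 ± 0.18 (adjusted p = 0.000237). Hypoxia moved it in opposite directions: it fell by 2.07 ± 0.18 in AXL WT (adjusted p = 2.56e-06) and rose by 1.17 ± 0.19 in AXL KO (adjusted p = 0.000239). The interaction was 3.24 ± 0.26 (adjusted p = 1.08e-05), the highest of the tested members. With any 1 AXL WT hypoxia library or replicates 2 and 3 left out, the interaction stayed between 3.19 and 3.33 and the hypoxia difference between genotypes between -1.14 and -1.01, called each time.

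Krt14, the basal type I keratin, was at 31.6, 33.5 and 34.01 CPM in AXL WT normoxia and at 137, 47.4 and 57.7 CPM in AXL WT hypoxia. In AXL KO it was at 0.5001, 0.759 and 0.641 CPM in normoxia and at 1.79, 1.68 and 1.78 CPM in hypoxia. All AXL KO libraries lay below all AXL WT libraries, and within each genotype all hypoxia libraries lay above all normoxia libraries. Krt14 was lower in AXL KO, at -5.70 ± 0.40 in normoxia (adjusted p = 2.1e-07) and also in hypoxia, at -5.52 ± 0.38 (adjusted p = 2.48e-07). In hypoxia the genotype difference was -4.90 without AXL WT hypoxia replicate 1 and -6.29 without replicates 2 and 3, called in both. Krt14 rose in hypoxia by 1.29 ± 0.31 in AXL WT (adjusted p = 0.00365) and by 1.46 ± 0.39 in AXL KO (adjusted p = 0.00678). The AXL WT value was 0.67 without replicate 1 and 2.06 without replicates 2 and 3, called in both. The difference between these responses was 0.18 ± 0.49 (adjusted p = 0.827, 95% interval -0.94 to 1.29). With the first AXL WT hypoxia library left out it was 0.80 (adjusted p = 0.00639), and it was -0.60 without replicates 2 and 3 (adjusted p = 0.0195), so its sign rests on those libraries.

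The other basal keratins were at or near the limit of detection. Krt5, the usual partner of Krt14 (ENSMUSG00000061527, chromosome 15, 101707070 to 101712898, minus strand), was read 5 times over all 12 libraries, Krt15 (ENSMUSG00000054146, chromosome 11, 100131758 to 100135928, minus strand) 8 times and Krt17 (ENSMUSG00000035557, chromosome 11, 100256217 to 100261029, minus strand) 4 times. A group count of 0 allows up to 3 counts, or 0.0179 CPM in AXL WT normoxia, 0.022 in AXL WT hypoxia, and 0.0175 (normoxia) and 0.0228 (hypoxia) in AXL KO, for counting error only. Krt19, a luminal type I keratin (ENSMUSG00000020911, chromosome 11, 100140810 to 100148665, minus strand), was read 21 times, of which 20 fell in AXL WT hypoxia: 3, 13 and 4 in replicates 1, 2 and 3. It had no count in either normoxia group. A fit without a filter on low counts called Krt19 higher in AXL WT hypoxia than in AXL WT normoxia and than in AXL KO hypoxia. With nearly all its counts in AXL WT hypoxia, these calls could go only 1 way, and 13 of its 21 counts came from 1 library. Among the basal labels Krt5, Krt14, Krt15 and Krt17, Krt14 was thus the only one with more than 8 counts. Other basal markers differed widely in level. Acta2, the smooth muscle actin of myoepithelium, had 1 count in all 12 libraries. Myh11, Oxtr, Cnn1, Tagln and Lgr5 were at most 3.37 CPM in any group mean. In AXL WT, Sox10 was at 287 (normoxia) and 130 CPM (hypoxia) and Mylk at 26.5 and 41.1 CPM. Both were lower in AXL KO. Itga6 had group means from 57 to 279 CPM.

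The counts of Krt20 were 21, 32 and 37 in the AXL WT normoxia libraries and 28, 11 and 23 in the AXL WT hypoxia libraries. No library of either AXL KO group had a count. The AXL WT mean of Krt20 was 30.7-fold a floor of 3 counts over the AXL KO group in normoxia and 19.8-fold in hypoxia. These values allow for counting error in AXL KO only, not for the spread of the AXL WT libraries. They are given without a test because the AXL WT counts alone brought Krt20 into the fit. At 0.537 ± 0.147 CPM in AXL WT normoxia and 0.451 ± 0.182 CPM in AXL WT hypoxia it was a trace transcript. Its oxygen difference in AXL WT was -0.25 ± 0.41 (adjusted p = 0.637, 95% interval -1.20 to 0.71).

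**Figure D4:**
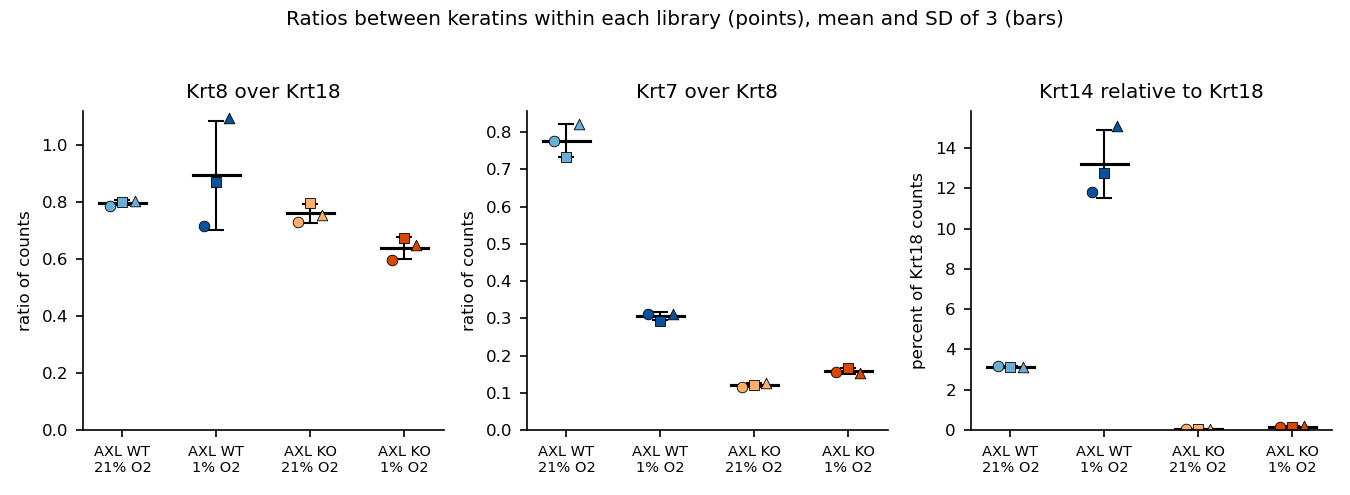
Ratios of keratin counts within each library, by group, with 1 point per library. The Krt7 to Krt8 ratio separates the 4 groups without overlap, and the ratio of Krt14 to Krt18 spans more than an order of magnitude between AXL WT and AXL KO.

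Ratios within a library do not depend on how libraries are scaled, and they are given here without a test. The ratio of Krt7 to Krt8 counts was 0.777 ± 0.0447 in AXL WT normoxia, 0.306 ± 0.0114 in AXL WT hypoxia, 0.121 ± 0.00494 (normoxia) and 0.158 ± 0.00803 (hypoxia) in AXL KO (SD, n = 3). The 3 AXL WT hypoxia libraries, which were far apart in CPM, had Krt7 to Krt8 ratios between 0.293 and 0.312. The Krt14 count was 3.14% ± 0.0495 of the Krt18 count in AXL WT normoxia, 13.2% ± 1.70 in AXL WT hypoxia, 0.0634% ± 0.0101 (normoxia) and 0.174% ± 0.00307 (hypoxia) in AXL KO. In AXL WT hypoxia it ran from 11.8% to 15.1%, so this ratio too was tighter than the levels behind it. The Krt8 to Krt18 ratio was 0.796 ± 0.0094 in AXL WT normoxia, and 0.759 ± 0.0337 (normoxia) and 0.639 ± 0.0384 (hypoxia) in AXL KO, and in AXL WT hypoxia it spread from 0.715 to 1.09.

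Krt8 and Krt18 together were 71.9% ± 1.32 of the member counts in AXL WT normoxia, 81.5% ± 1.63 in AXL WT hypoxia, 94.9% ± 0.293 (normoxia) and 93.8% ± 0.432 (hypoxia) in AXL KO. The members together took 0.313% ± 0.0143 of all counts in AXL WT normoxia and 0.137% ± 0.0805 in AXL WT hypoxia. In AXL KO they took 0.184% ± 0.0128 in normoxia and 0.153% ± 0.000579 in hypoxia. Type II keratins were 41.3% ± 0.458 of the summed member level per kilobase in AXL WT normoxia, 39.0% ± 4.83 in AXL WT hypoxia, 36.5% ± 1.04 (normoxia) and 32.9% ± 1.36 (hypoxia) in AXL KO. By counts alone the same shares were 58.7%, 50.9%, 46.0% and 42.7%. Type II RNA was thus the smaller part per kilobase in each group, and the larger part by counts in AXL WT normoxia. By counts the AXL WT hypoxia libraries lay on both sides of an even share, at 45.9%, 50.6% and 56.1%.

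**Figure D5:**
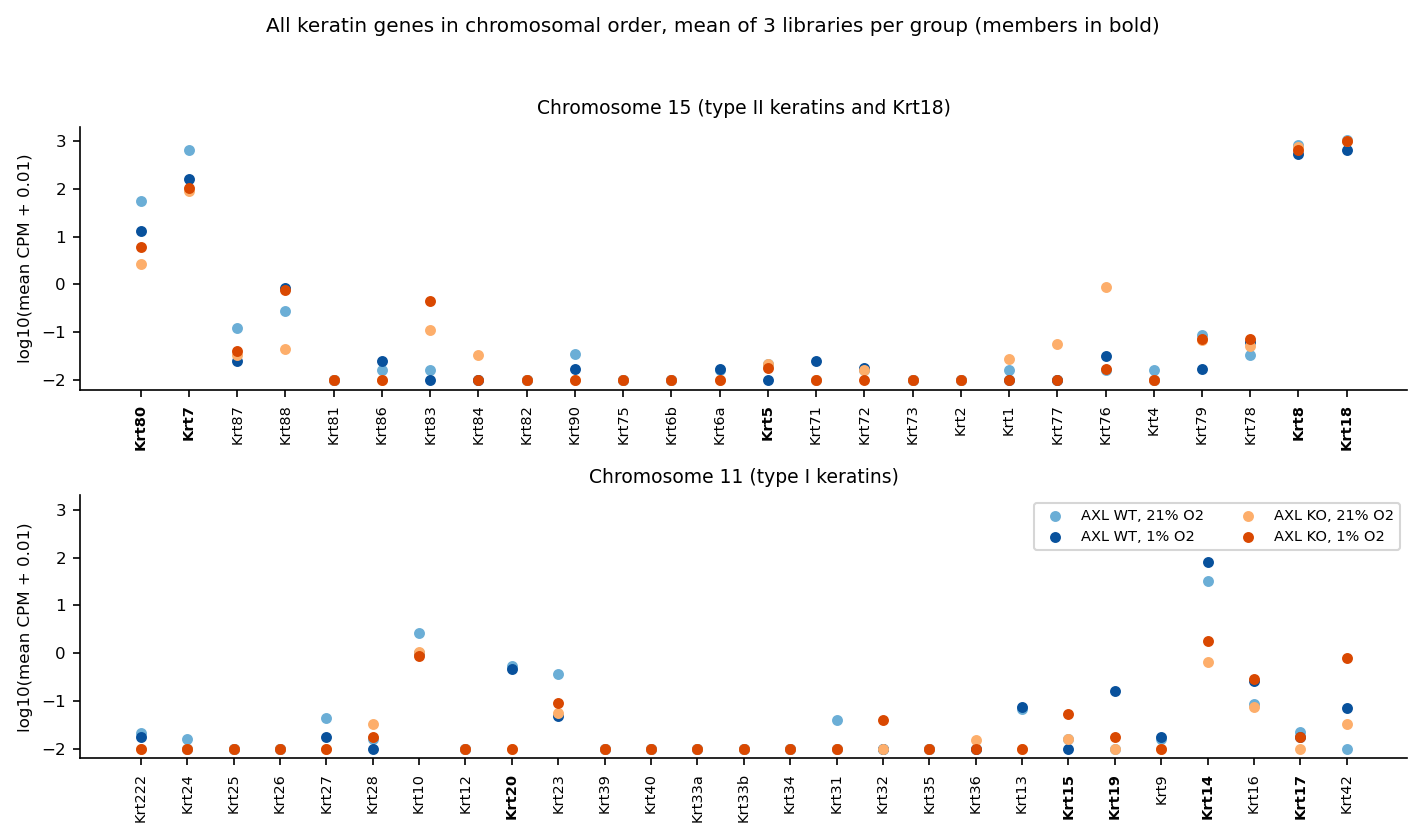
Mean level by group of the keratin genes of the type I cluster (chromosome 11) and the type II cluster (chromosome 15), in gene order, on a log axis. Most genes lie at the bottom of the axis, and the members Krt8, Krt18, Krt7, Krt14 and Krt80 stand above it.

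The other 43 keratin genes show how narrow the keratin repertoire of these cells was. Of all 53 keratin genes, 27 on chromosome 11 and 26 on chromosome 15, 15 had no count in any library, 24 had 1 to 30 counts over the 12 libraries and 14 had over 30. Krt10, the type I keratin of suprabasal epidermis, was the only other keratin at 1 CPM or more in a group. It was at 2.65 ± 0.178 CPM in AXL WT normoxia, 1.01 ± 0.333 in AXL WT hypoxia, 1.05 ± 0.111 (normoxia) and 0.853 ± 0.0799 (hypoxia) in AXL KO. Krt10 was lower in AXL KO in normoxia (-1.33 ± 0.24, adjusted p = 0.000446) and in AXL WT hypoxia against normoxia (-1.39 ± 0.24, adjusted p = 0.000399), and its interaction was 1.09 ± 0.34 (adjusted p = 0.0336). That interaction no longer passed without AXL WT hypoxia replicate 2 (0.96, adjusted p = 0.051), replicate 3 (0.95, adjusted p = 0.0583) or both (0.61, adjusted p = 0.13), whereas the AXL WT response did, at -0.91 (adjusted p = 0.00271) without both. Of the 7 other keratins tested, 2 were called higher and none lower in AXL KO in hypoxia, beside 29.9% and 33% of all genes, and 3 were higher and 3 lower in normoxia, beside 29.7% and 30%. All these higher calls came from genes with at most 8 counts in either AXL WT group. They entered the fit through AXL KO counts alone, so these calls could go only 1 way. A lower call in normoxia likewise came from a gene that entered through its 61 counts in AXL WT normoxia. Apart from Krt10 no other keratin had a group mean above 0.89 CPM. That value belongs to Krt76 in AXL KO normoxia, a gene chosen after its values were seen.

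Genes of proteins that tie keratins to desmosomes and hemidesmosomes, and of other keratin-related lists, are given next beside the share called over all genes, which in AXL KO against WT was 29.9% higher and 33% lower in hypoxia and 29.7% higher and 30% lower in normoxia. Some list genes, like Krt20, entered the fit through counts of 1 genotype alone. Their calls between genotypes could go only 1 way, and they remain in the counts below. The naming rule picked the strongest calls of each list in hypoxia. With AXL WT hypoxia replicate 1, 2 or 3 left out, all 17 list genes that met it kept direction and call there. With both 2 and 3 left out they kept direction. Of 21 tested genes for cytolinkers and junction plaques, 10 were higher and 7 lower in AXL KO than in AXL WT in hypoxia, with a median log2 change of 0.49 beside -0.04 for all genes. Dsp, the desmoplakin that anchors keratins at desmosomes, fell by 3.54 ± 0.18 (adjusted p = 1.65e-08). Perp, a desmosomal membrane protein, rose by 3.71 ± 0.16 (adjusted p = 4.96e-09). Lamb3, a laminin chain under hemidesmosomes, was at -3.68 ± 0.26 (adjusted p = 3.48e-07). In normoxia 7 of the 21 were higher and 9 lower in AXL KO (median 0.53).

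Of 7 tested genes for other intermediate filaments, 2 were higher and 2 lower in AXL KO in hypoxia (median 0.09), shares close to those of all genes, and 2 were higher and 5 lower in normoxia (median -1.65). In hypoxia Vim, the vimentin of mesenchymal cells, was at 3444 CPM in AXL WT and 12684 CPM in AXL KO (1.88 ± 0.24, adjusted p = 3.24e-05). Nes, the nestin of progenitor cells, fell from 331 to 11.9 CPM (-4.80 ± 0.23, adjusted p = 1.01e-08). No protein was measured.

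Among 15 tested regulators of keratin genes, 4 were higher and 7 lower in AXL KO in hypoxia (median -0.40), and 7 were higher and 6 lower in normoxia (median 0.29). Foxa1, higher in both, and Trp63, higher in normoxia, entered the fit through AXL KO counts alone, so these calls could go only 1 way. In hypoxia Tfap2c, an AP-2 factor of luminal cells, was at 127 CPM in AXL WT and 0.687 in AXL KO (-7.54 ± 0.36, adjusted p = 9.58e-09). Also in hypoxia, Grhl2, a grainyhead factor of epithelia, was at -4.49 ± 0.60 (adjusted p = 5.17e-05). Elf3, an epithelial ETS factor, was at -3.28 ± 0.29 there (adjusted p = 1.79e-06). Sox9 was instead higher in AXL KO hypoxia, at 1.42 ± 0.20 (adjusted p = 8.98e-05), and at 0.90 without AXL WT hypoxia replicates 2 and 3. Trp63, which encodes p63, the master factor of basal epithelium, was chosen after its values were seen. It was at 13.9 CPM in AXL KO normoxia and at 0.0248 (AXL WT normoxia), 0.0455 (AXL WT hypoxia) and 0.0606 CPM (AXL KO hypoxia) elsewhere. A relation between Trp63 and Krt14 was not tested.

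Of 12 tested luminal markers, 4 were higher and 5 lower in AXL KO in hypoxia (median -0.38), and 6 were higher and 4 lower in normoxia (median 0.42). In hypoxia Epcam was at -2.78 and Cdh1, the E-cadherin gene, at -2.76. Cldn4, a tight junction claudin, was at -2.52 there and Prlr, the prolactin receptor, at -6.36 (adjusted p from 2.25e-06 to 4.83e-05 for these genes). The 4 that were higher, outside the naming rule and listed after their values were seen, were Cldn3 (from 42.1 to 125 CPM, 1.57 ± 0.23, adjusted p = 0.000116), Cldn7, Foxa1 and Wfdc18. Foxa1 had no count in either AXL WT group, so its call could go only 1 way, here and in normoxia, where it is also counted. Prlr was at -3.70 without AXL WT hypoxia replicates 2 and 3. Of 8 tested basal markers 3 were higher and 2 lower in hypoxia (median -0.37) and 1 higher and 2 lower in normoxia (median 0.76). In hypoxia these included Mylk and Sox10, both at -6.67 (adjusted p = 1.38e-09 and 2.52e-09) and Itga6, an integrin of hemidesmosomes, at 1.66 (adjusted p = 0.00194; 0.79 without AXL WT hypoxia replicates 2 and 3). Of the markers of other cell types, which are given by their sums and are outside the naming rule, Ptprc, the pan-leukocyte marker, was at most 0.0663 CPM in any group mean. The 8 endothelial markers summed to 16.4 to 18.3 CPM in AXL KO hypoxia and to at most 5.06 elsewhere, and Kdr alone made 16.5 CPM of the former. The 8 cornified epithelium markers summed to 62.5 to 92.9 CPM in AXL KO hypoxia, of which Sbsn made 74.2 on average, and to 3.25 to 20.2 elsewhere. The 5 adipocyte markers summed to 33.8 to 41.8 CPM in AXL WT normoxia, nearly all Fabp4, and to 4.6 to 27.9 elsewhere. The 7 fibroblast markers summed to 167 to 181 CPM in AXL KO normoxia, 65.4 to 72 in AXL WT normoxia, 57.5 to 84.9 in AXL WT hypoxia and 19.6 to 23.2 in AXL KO hypoxia. Cd68 made up most of the leukocyte sum, at 71.4 and 51.9 CPM in AXL KO normoxia and hypoxia against 11.5 and 7.04 in AXL WT. Their part in the keratin differences was not tested.

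The members differed in which other members they followed over the 12 libraries. Pearson's r of log2 CPM was 0.935 for Krt8 with Krt18, 0.911 for Krt7 with Krt80, 0.800 for Krt14 with Krt80, 0.641 for Krt7 with Krt14 and -0.196 for Krt8 with Krt14. The 12 points fall into 4 groups and share their libraries, so these values describe the groups and carry no p. Among 10245 genes, those most like Krt14 were Hlf (r = 0.997) and Pip5k1b (0.993), and those most like Krt7 were Utp3 (0.989) and Cdt1 (0.987). Those most like Krt80 were BC055324 (0.986) and Rad54b (0.984). Those most like Krt8 were Ccdc12 (0.982) and Smad1 (0.972), and those most like Krt18 were Eif4h (0.9754) and Zfp81 (0.970).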

How the data were processed

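Reads came from 12 libraries of total RNA. Per the file headers the deposited values are counts: featureCounts 1.6.0 counted read pairs whose ends both aligned, by strand (reverse), leaving out chimeric and multi-mapping pairs, on Ensembl release 93 genes. The submitters' processing notes name STAR 2.5.1b, featureCounts 1.4.6 and build GRCm38, so the counter's version differs between the sources. The titles give group and replicate number. The genotype tag of 6 samples contradicts them and was not used.

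Counts were fitted with edgeR 4.0.16 in R 4.3.3. After filterByExpr, which left 16767 genes and dropped 37465, libraries were scaled by TMM. One robust quasi-likelihood model covered the 4 groups, with 8 residual degrees of freedom and a common biological coefficient of variation of 0.201. Calls needed a p under 0.05 after Benjamini-Hochberg adjustment over all genes tested. CPM use TMM scaling, values after ± are SD of 3 libraries for levels and SE for log2 fold changes, and intervals are 95%. Symbols were taken from GENCODE M21 for 54079 genes. The fit was tested on simulated data.

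The members, the gene lists and the tests were chosen with earlier results of these data known. List genes named were called in AXL KO against WT in hypoxia with at least 10 CPM in the higher group, up to 4 per list by smallest p. For none of them did the groups compared overlap. A gene that met this rule is not reported here. Marker genes given for a label or a cell type (Acta2, Myh11, Oxtr, Cnn1, Tagln, Lgr5, Ptprc, Cd68, Kdr, Sbsn, Fabp4) are outside it. They were chosen for their role or after their values were seen. Other keratins were named at 1 CPM or more in a group. For each member the 2 genes with the highest Pearson's r of log2 CPM (prior count 2) were named. Other settings were a stricter filter (at least 5 CPM in 3 libraries) or none, scaling by RLE or by library size only, DESeq2 1.42.0, limma-voom (limma 3.58.1) with group weights, a replicate block, fits of the compared libraries alone, and libraries left out. Where AXL WT hypoxia replicates 2 and 3 were left out, the lone library is assumed to vary like the other groups. The length of the longest coding transcript was added after seeing the data.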

Additional observations from a re-analysis of the deposited data

Results flagged for a closer look

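Krt80 responded to hypoxia in opposite directions in the 2 genotypes, and the test of the difference itself gave an interaction of 3.24 ± 0.26 on the log2 scale (adjusted p = 1.08e-05, edgeR). All 3 AXL WT libraries were lower in hypoxia than in normoxia and all 3 AXL KO libraries were higher. Krt7 differed between the genotypes in the same test, with an interaction of 2.17 ± 0.39 (adjusted p = 0.00202). All 3 AXL WT libraries fell below their normoxia libraries, and the AXL KO libraries of both oxygen levels overlapped. Krt10, a trace keratin outside the 10 members, had an interaction of 1.09 ± 0.34 (adjusted p = 0.0336), with a fall in AXL WT and no call in AXL KO. It no longer passed without AXL WT hypoxia replicate 2 (adjusted p = 0.051) or 3 (0.0583).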

How the results depend on the processing

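Of 442 values of single members under other settings, 401 kept their direction and their side of the threshold, 20 came to pass it, 8 no longer passed and 13 changed sign. The calls of Krt14 and Krt80 between genotypes kept direction and side under every setting run. Without AXL WT hypoxia replicates 2 and 3 the sign changed for Krt8 (-0.37) and Krt18 (-0.20) in AXL KO against WT in hypoxia, for Krt18 (0.15) and Krt20 (0.22) between oxygen levels in AXL WT, and for Krt8 (-0.22), Krt14 (-0.60) and Krt18 (-0.12) in the interaction. Without AXL WT hypoxia replicate 2 it changed for Krt20 in AXL WT (0.04) and for the Krt14 interaction (-0.10), and without replicate 3 for the latter (-0.02). In AXL KO between oxygen levels it changed under library size alone for Krt7 (-0.048) and Krt18 (-0.18), and without AXL KO normoxia replicate 1 for Krt18 (-0.027). Of these, Krt8 in hypoxia (adjusted p = 0.00458) and the Krt14 interaction without replicates 2 and 3 (0.0195) were called. When 1 library was left out, Krt20 in AXL WT ran from -0.53 to 0.04, Krt18 in AXL KO between oxygen levels from -0.027 to 0.049 and the Krt14 interaction from -0.10 to 0.799.

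Counts here include Krt20, whose calls between genotypes could go only 1 way. Members higher in AXL KO in hypoxia numbered 1 by voom and 0 to 2 when 1 library was left out (2 without AXL WT hypoxia replicate 1), against 0. Of all genes tested, 3982 of 16767 were higher there by voom and 6053 of 17493 without that replicate, against 5016 of 16767. Members lower there numbered 5 without AXL WT hypoxia replicates 2 and 3, against 3. Higher members in AXL WT between oxygen levels numbered 2 without a filter (5040 of 32197 genes), against 1 (4895 of 16767). The added member is Krt19, whose call could go only 1 way. Lower members in AXL KO numbered 1 by voom, 1 without AXL WT hypoxia replicates 2 and 3 and 1 with the compared libraries alone, against 0. In the interaction 2 to 5 were higher when 1 library was left out (5 without AXL WT hypoxia replicate 1), and 1 was lower without AXL WT hypoxia replicates 2 and 3. Over all genes the interaction had 1428 to 4246 higher and up to 4171 lower calls when 1 library was left out, against 2264 and 2566; the highest of each came without AXL WT hypoxia replicate 1. Causes were not tested.

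Replicate numbers did not pair the libraries: 2 of 18 same-number correlations were over 0.1 (-0.065 to 0.142). With the replicate number as a block no member's call changed, for example Krt7 in AXL KO against WT in hypoxia (-0.61, adjusted p = 0.0967) and its interaction (2.21, 0.00478), and calls over all genes moved little (5060 higher and 5365 lower in hypoxia). The type II share by counts was 58.7%, 50.9%, 46.0% and 42.7% in the order of the text, and 44.4% with coding length in AXL WT normoxia. Depth limits Krt5, Krt15, Krt17, Krt19 and Krt20.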
